A study of Mus musculus with 32 samples.

Results

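The quadriceps of healthy Gne M743T knock-in mice was compared with the quadriceps of wild-type mice, 4 libraries of each, by RNA sequencing of whole muscle. These are 8 of the 32 libraries of a study of 3 leg muscles, gastrocnemius, quadriceps and tibialis, in knock-in mice that were sick, knock-in mice that were healthy, and wild-type mice. The libraries were taken by their labels: the healthy knock-in mice carried the M743T change on both copies of Gne and were recorded as healthy, and the wild-type mice were recorded as healthy too. All mice were males of up to 3 months. The labels give neither the signs by which a knock-in mouse was called sick, nor the strain background or breeding of either genotype, nor which libraries of the 3 muscles came from a single animal. A knock-in of this kind is carried by every cell of the animal, so all cell types of the muscle hold the allele. Library totals were 7685164 to 30652364 read counts in healthy knock-in and 11547783 to 42588233 in wild-type quadriceps. The share of counts from the mitochondrial genome was 6.94 to 12.4% in healthy knock-in and 7.04 to 10.8% in wild-type libraries. The quadriceps is a fast muscle, and 17 fast fibre genes summed to 159460 to 222301 CPM in healthy knock-in and 193592 to 243342 CPM in wild-type libraries, where CPM is the usual counts per library total on a common scale, adjusted between libraries. Healthy replicate 4 stood apart by its adipocyte transcripts and wild-type replicate 4 by several genes that were read in it and not in the other 3 wild-type libraries. Calls are given with and without either library. Other than for adipocyte markers, list counts at an unadjusted p under 0.05 are given in both ways where they moved by 3 genes or more. The study names 4 mice of each state. The libraries of quadriceps were taken as separate mice, and libraries of different muscles must then share mice.

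Gne encodes the enzyme that makes N-acetylmannosamine from UDP-N-acetylglucosamine and then phosphorylates it, the first steps of sialic acid synthesis. Sialic acids cap the sugar chains of many cell surface and secreted glycoproteins, in muscle including dystroglycan. In people, inherited loss of function on both copies of GNE causes GNE myopathy, an adult-onset wasting disease that spares the quadriceps until late. The allele studied here replaces methionine 743, which lies in the kinase domain, by threonine.

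In the reference the changed codon is codon 743 of 753, in exon 12 of 12, the last coding exon of Gne, on the minus strand of chromosome 4. The coding bases around it lie at chr4:44037121-44037183 (GRCm38), and the wild-type methionine codon is in capitals because it is the position that separates the genotypes; the deposited files hold counts per gene and show no base at this site.
Gne: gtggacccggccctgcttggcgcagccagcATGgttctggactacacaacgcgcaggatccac

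Gne transcript level did not pass the test. Gne had 9.33, 9.48, 10.9 and 14.8 CPM in the healthy knock-in libraries, against 9.27, 9.81, 9.796 and 8.504 CPM in wild type. The ranges overlapped, and healthy replicate 4 was the highest of the 8 libraries. The log2 fold change of healthy knock-in over wild type was 0.20 ± 0.14 (SE), with an adjusted p of 0.853, and it was 0.10 ± 0.12 (SE) without healthy replicate 4. The M743T change need not alter the number of reads, so the level of Gne does not check the genotype labels.

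No other gene of the sialic acid route passed the test. Of 14 listed genes for sialic acid synthesis, transport and removal, 13 had enough reads to test. Neu4, a sialidase, was at 0 in all 8 libraries. None of the 13 passed the adjusted threshold in limma, none had an unadjusted p under 0.05, and the median log2 fold change was 0.08, against 0.01 for all genes. Their summed level was 119.9, 114, 113 and 109.8 CPM in the healthy knock-in libraries, against 106, 109, 108 and 101 CPM in wild type. The lowest healthy sum was just above the highest wild-type sum, 109.8 against 108.5 CPM. Without healthy replicate 4, 1 of the 13 was higher at an unadjusted p under 0.05, against 3.82% of all genes. Without wild-type replicate 4 it was also 1, against 4.27%. Nans, which makes sialic acid 9-phosphate, had 16 to 19.7 CPM in healthy knock-in and 13.02 to 17.4 CPM in wild-type quadriceps. Cmas, which activates sialic acid with CMP in the nucleus, had 33.1, 24.95, 26.5 and 23.3 CPM in the healthy knock-in libraries, against 23, 22.3, 23.2 and 21.97 CPM in wild type. Every healthy knock-in library was above every wild-type library for Cmas, with a log2 fold change of 0.24 ± 0.11 (SE) and an unadjusted p of 0.0584. Slc35a1, the Golgi carrier of CMP-sialic acid, had 11.3 to 16.6 CPM in healthy knock-in and 11.4 to 13.3 CPM in wild-type quadriceps, and Neu1, the lysosomal sialidase, had 14.9 to 18.1 CPM in healthy knock-in and 15.6 to 20.4 CPM in wild-type quadriceps. Among 15 tested sialyltransferases, 1 had an unadjusted p under 0.05: St3gal2, which adds sialic acid to galactose on glycoproteins and gangliosides, was at 82.9, 68.9, 83.9 and 59.8 CPM in the healthy knock-in libraries, against 93.5, 90.8, 88.04 and 105 CPM in wild type. Its groups did not overlap, and its log2 fold change was -0.37 ± 0.13 (SE) with an adjusted p of 0.743.

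Of 13479 genes tested in the 8 libraries with limma, 2 passed an adjusted p of 0.05, which is 0.0148% of those tested, and both fell in healthy knock-in quadriceps. Without healthy replicate 4, 2 of 14102 genes passed, or 0.0142%, and they were the same genes, Vcp-rs and Gm13305. At an unadjusted p under 0.05, 471 genes were higher (3.49%) and 385 lower (2.86%) in healthy knock-in quadriceps, and without healthy replicate 4 these were 538 (3.82%) and 474 (3.36%). Without wild-type replicate 4 they were 605 (4.27%) and 508 (3.59%) of 14155 genes. With 8 libraries, all 4 healthy values lay above all 4 wild-type values for 265 genes (1.97%) and below them for 250 (1.85%). With replicate 4 left out of the healthy group, the ranges were apart in these directions for 496 genes (3.52%) and 527 genes (3.74%). These shares are the background for the counts given below.

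Both called genes are near-copies of other genes. Vcp-rs is a processed pseudogene on chromosome X (chrX:104345829-104348234, GRCm38, minus strand), a copy of the spliced transcript of Vcp. Vcp on chromosome 4 encodes valosin-containing protein, an ATPase that pulls ubiquitin-tagged proteins out of complexes and membranes for degradation. Over 1700 bases aligned without gaps, 5 bases differ between Vcp-rs and Vcp, an identity of 99.7%, and 83.2% of the 50-base words of Vcp-rs also occur in Vcp. The 60 bases with the most differing letters are shown to make plain how little separates a read of the copy from a read of the parent. The stretch of Vcp-rs lies at chrX:104346693-104346752 and that of Vcp at chr4:42983517-42983576 in exon 13 of 17, both on the minus strand, with the letters that differ in capitals.
Vcp-rs: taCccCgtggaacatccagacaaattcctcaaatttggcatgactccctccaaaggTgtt
Vcp: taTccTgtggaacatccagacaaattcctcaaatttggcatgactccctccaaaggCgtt

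Gm13305 is annotated on chromosome 4 (chr4:42158842-42168603, minus strand) and resembles Il11ra1, which encodes the interleukin 11 receptor alpha chain. Over 1953 bases of transcript aligned without gaps, 22 bases differ, an identity of 98.9%. Of the 50-base words of Gm13305, 53.3% occur in Il11ra1 and 30.7% in Il11ra2, another copy. The stretch of Gm13305 shown lies at chr4:42162146-42162205 on the minus strand and that of Il11ra1 at chr4:41766111-41766170 on the plus strand, each in exon 9 of 14, with differing letters in capitals.
Gm13305: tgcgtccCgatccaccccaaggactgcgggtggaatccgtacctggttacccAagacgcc
Il11ra1: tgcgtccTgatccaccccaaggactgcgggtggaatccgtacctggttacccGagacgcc

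Vcp-rs had 0, 3, 7 and 2 read counts in the healthy knock-in libraries, against 1341, 2647, 3329 and 816 in wild type. In CPM these were 0, 0.2902, 0.2204 and 0.248 CPM in the healthy knock-in libraries, against 73.1, 75.5, 82.6 and 72.3 CPM in wild type. The groups were far apart, and healthy replicate 4 was like the other healthy libraries. The fitted log2 fold change was -8.59 ± 0.41 (SE) with an adjusted p of 7.4e-05, and it was -8.78 ± 0.48 (SE) without healthy replicate 4, with an adjusted p of 0.000385.

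Gm13305 had 0, 2, 6 and 1 read counts in the healthy knock-in libraries, against 99, 202, 188 and 54 in wild type. In CPM these were 0, 0.193, 0.189 and 0.124 CPM in the healthy knock-in libraries, against 5.396, 5.76, 4.66 and 4.78 CPM in wild type. Here too no healthy library approached a wild-type one. The log2 fold change was -5.08 ± 0.38 (SE) with an adjusted p of 0.00166, and it was -5.16 ± 0.46 (SE) without healthy replicate 4, with an adjusted p of 0.0126.

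By their own counts, the parent genes did not show a loss of that kind. Vcp had 257, 218, 211 and 198 CPM in the healthy knock-in libraries, against 258, 263, 292 and 245 CPM in wild type. Healthy replicate 1 lay within the wild-type range and the other 3 healthy libraries below it; the log2 fold change was -0.26 ± 0.11 (SE), with an unadjusted p of 0.0407 and an adjusted p of 0.782. Reads of Vcp-rs made up 0 to 0.133% of the Vcp and Vcp-rs reads together in healthy knock-in libraries and 22.04 to 22.8% in wild-type libraries. That share varied by less than 1 percentage point among the wild-type libraries. The summed level of Vcp and Vcp-rs was 257, 219, 212 and 198 CPM in the healthy knock-in libraries. In wild type this sum was 331, 339, 375 and 317 CPM, without overlap, and it was not tested. Il11ra1 had 12.3 to 29.3 CPM in healthy knock-in and 15.6 to 20.7 CPM in wild-type quadriceps, and these ranges overlapped. How reads that match more than 1 place were counted, and whether counting used strand, is not given in the sources used here, so counts of each copy and its parent are uncertain.

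A pair of further copies on chromosome 4 was nearly absent in the knock-in. Gm2564 shares 72.2% of its 50-base words with Ccl19, a chemokine gene. Gm2564 had 0, 0.193, 0.2204 and 0.124 CPM in the healthy knock-in libraries, against 3.38, 1.85, 1.79 and 4.87 CPM in wild type, without overlap, a log2 fold change of -3.92 ± 0.58 (SE) and an adjusted p of 0.18. Gm12407, an unprocessed pseudogene that shares 72.4% of its words with Ccl19, was too sparse to test. Gm12407 had 0 read counts in all 4 healthy knock-in libraries, against 13, 14, 16 and 9 in wild type. Set against a floor of 3 counts over the healthy group, Gm12407 was at least 9.01-fold lower in healthy knock-in quadriceps.

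Genes on the other side of the comparison lay close by. Hint2, which encodes a mitochondrial nucleotide hydrolase, had 21.8, 10.9, 17.8 and 19 CPM in the healthy knock-in libraries, against 6.16, 4.99, 5.58 and 7.09 CPM in wild type. All healthy libraries were above all wild-type libraries, and the log2 fold change was 1.56 ± 0.21 (SE) with an adjusted p of 0.135. Galt, which encodes galactose-1-phosphate uridylyltransferase of galactose breakdown, had 19.4, 13.8, 16.7 and 12.5 CPM in the healthy knock-in libraries, against 8.34, 7.47, 8.16 and 7.79 CPM in wild type. Its groups did not overlap, and its log2 fold change was 0.98 ± 0.14 (SE) with an adjusted p of 0.155. Phf24, a gene with a PHD finger, had 1.65, 1.45, 1.86 and 0.745 CPM in the healthy knock-in libraries, against 0.382, 0.428, 0.347 and 0.0886 CPM in wild type, again without overlap, at a log2 fold change of 2.24 ± 0.42 (SE) and an adjusted p of 0.485. None of these 3 passed the threshold in the 2 fits above. Other settings called them: Hint2 with no filter, with 11 or 32 libraries in the fit, with quality weights and without healthy replicate 2, Galt with 11 libraries and with quality weights, and Phf24 with quality weights when healthy replicate 4 was left out.

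**Figure D1:**
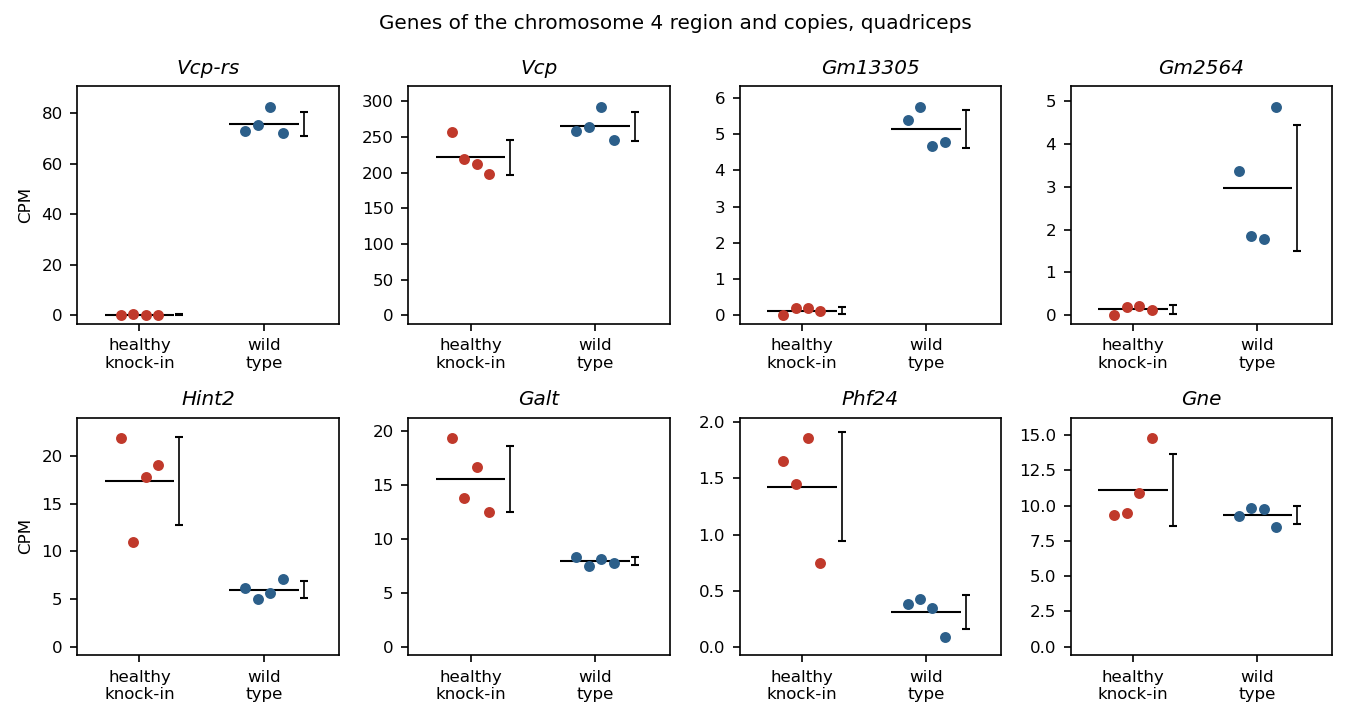
CPM of 8 genes in the 4 healthy knock-in quadriceps libraries (left, red) and the 4 wild-type libraries (right, blue); each point is a library, the line the mean and the bar the SD. Vcp-rs, Gm13305 and Gm2564 were near 0 in every healthy knock-in library, Hint2, Galt and Phf24 were higher in every healthy knock-in library, and Vcp and Gne overlapped between the groups.

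All of these genes except Vcp-rs lie within 5 Mb of Gne on chromosome 4. Besides Gne, 101 genes starting within 5 Mb of it were tested. One of them, Gm13305, was called. An unadjusted p under 0.05 was found for 16 of the 101, or 15.8%, against 6.35% of all genes. The groups did not overlap for 10, or 9.90%, against 3.82% of all genes, and of these 4 were higher and 6 lower in healthy knock-in quadriceps. Relative to the start of Gne, with negative values towards the start of the chromosome, Gm13305 lies at -1.88 Mb, Gm2564 at -1.40 Mb, Phf24 at -1.12 Mb, Hint2 at -0.38 Mb and Galt at -2.28 Mb. Vcp, the parent of Vcp-rs, lies at -1.05 Mb. The median log2 fold change of the 101 genes was 0.05, against 0.01 for all genes. The strain from which this stretch of chromosome 4 came in either genotype is not stated, and a difference of genotype at Gne and a difference in the surrounding chromosome cannot be told apart in these libraries.

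**Figure D2:**
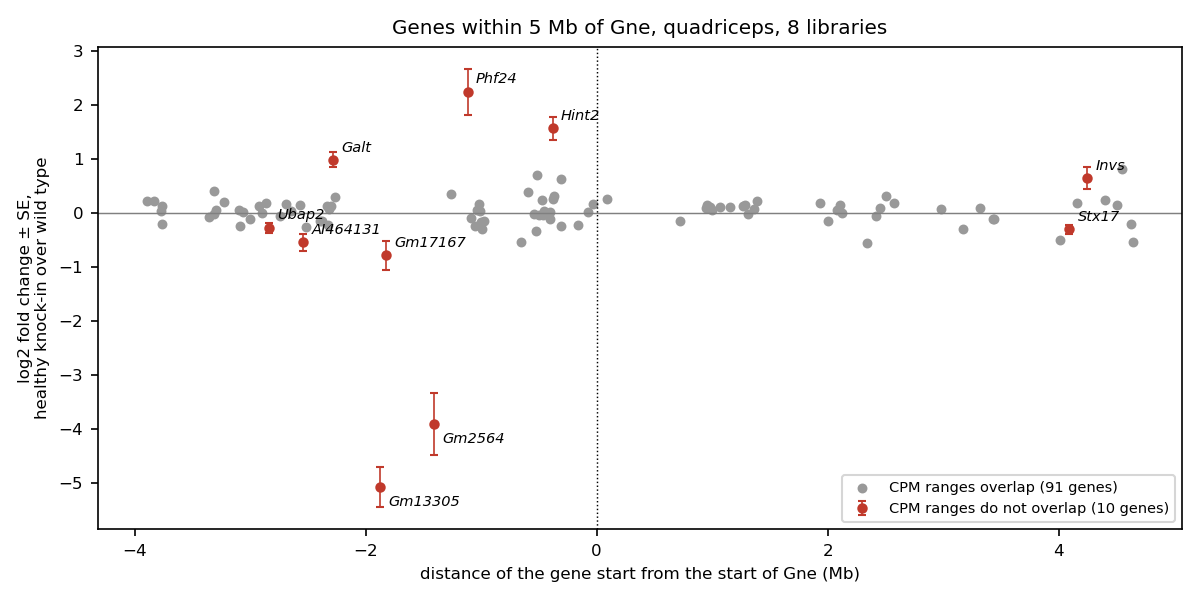
Log2 fold change of healthy knock-in over wild-type quadriceps for 101 genes within 5 Mb of Gne, against the distance of each gene's start from that of Gne in Mb. The 10 genes whose CPM ranges did not overlap are in red with their SE, and 8 of them lie on the negative side within 3 Mb; the other 91 are grey.

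Beyond the called genes, the 10 strongest genes that were higher in every healthy library than in every wild-type library were described by rule, and none passed the adjusted threshold. They were Gm1840, Hint2, Galt, Cd68, Gm43699, Atp8b4, Zfp27, Fam78b, Phf24 and Cyp51. Zfp27, a zinc finger gene, had 14.99, 11.6, 15.2 and 13.5 CPM in the healthy knock-in libraries, against 8.77, 7.78, 8.43 and 5.403 CPM in wild type, a log2 fold change of 0.85 ± 0.16 (SE) and an adjusted p of 0.485. Fam78b had 7.18 to 10.7 CPM in healthy knock-in and 3.82 to 4.78 CPM in wild-type quadriceps, Atp8b4, a phospholipid flippase gene, had 0.724 to 1.24 CPM in healthy knock-in and 0.164 to 0.322 CPM in wild-type quadriceps, and Gm43699 had 0.993 to 2.12 CPM in healthy knock-in and 0.372 to 0.62 CPM in wild-type quadriceps. On the lower side the rule added Gm2564, Gm37697, Vmn2r97, Mypn, Prima1, Pde4dip, Filip1l and Pxn. Mypn, which encodes the Z-disc protein myopalladin, had 421, 407, 369.9 and 397 CPM in the healthy knock-in libraries, against 523, 522, 589.8 and 544 CPM in wild type. Every healthy library was below every wild-type library, with a log2 fold change of -0.44 ± 0.09 (SE) and an adjusted p of 0.498. Pde4dip, which encodes the anchoring protein myomegalin, had 3481, 4088, 4032 and 3465 CPM in the healthy knock-in libraries, against 5476, 5337, 5278 and 5145 CPM in wild type, at a log2 fold change of -0.50 ± 0.10 (SE). Prima1, the membrane anchor of acetylcholinesterase, had 2.14 to 2.998 CPM in healthy knock-in and 3.82 to 6.62 CPM in wild-type quadriceps, and Pxn, which encodes the focal adhesion protein paxillin, had 81.9 to 101 CPM in healthy knock-in and 117 to 124 CPM in wild-type quadriceps. Filip1l had 60.4 to 88.6 CPM in healthy knock-in and 112 to 138 CPM in wild-type quadriceps. Gm37697 and Vmn2r97 share 50-base words with each other, 7.97% of those of Gm37697, so reads may be split between them. Gm37697 had 0.497 to 1.64 CPM in healthy knock-in and 2.43 to 2.89 CPM in wild-type quadriceps. Vmn2r97 had 1.16 to 1.89 CPM in healthy knock-in and 2.48 to 3.597 CPM in wild-type quadriceps.

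Several genes were read in some libraries and all but missing in others. A gene was taken as read at 2 CPM or more and as nearly absent at 0.5 CPM or less, with every library on one side or the other and at least 2 libraries reading it; 28 genes met this. Another 34 genes were read in healthy replicate 4 only. Vcp-rs and Gm13305 were the 2 genes read in every wild-type and no healthy knock-in library. Another 7 genes were read in all 4 healthy knock-in libraries and in wild-type replicate 4, but not in wild-type replicates 1 to 3, and 4 of the 7 are annotated as pseudogenes. Gm5452, a pseudogene that shares 11.6% of its words with Ldha, had 33.9, 33.1, 32.02 and 34.6 CPM in the healthy knock-in libraries, against 0.164, 0.285, 0.223 and 68.03 CPM in wild type. Wild-type replicate 4 was above all the healthy libraries, and the healthy mean was 0.491 of its value. For Gm13365 that ratio was 0.509, for Gm6394 0.461, for Gm11478 0.566 and for Ftl1-ps1 0.409. Gm11478 shares words with Rpl13a and Ftl1-ps1 with Ftl1, both widely and highly expressed genes. The remaining 2 genes, Klk1b3 and Klk1b16, belong to the kallikrein family on chromosome 7, and their ratios were higher, 2.36 for Klk1b3 and 1.09 for Klk1b16. Gm1840, which shares 38.1% of its words with Gpi1, had 33.8, 28.3, 25.9 and 27.3 CPM in the healthy knock-in libraries, against 0.654, 0.5701, 0.546 and 14.6 CPM in wild type, and the healthy group lay wholly above; its log2 fold change was 4.89 ± 0.64 (SE) with an adjusted p of 0.135.

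Such patterns also ran across genotype. Gm13394, a processed pseudogene of which 94.7% of the words occur in Gapdh, had 0.354, 194, 0.472 and 197 CPM in the healthy knock-in libraries, against 227, 0.485, 264 and 196 CPM in wild type. It was read in healthy replicates 2 and 4 and wild-type replicates 1, 3 and 4, and nearly absent in the other 3 libraries, and Gm47854 followed the same pattern. Rpsa-ps10 was read in wild-type replicates 1 and 2 only, at 16.1 and 17.8 CPM. Htatip2, Tph1 and Gm10524 were missing in wild-type replicate 4 only, where Htatip2 had 0.177 CPM against 2.51 CPM or more elsewhere. These genes mostly had the same state in libraries of the same number and genotype from the other muscles. Splitting at 1 CPM, same-numbered healthy libraries of quadriceps and gastrocnemius had the same state in 23 of 24 pairs over the 8 genes that varied within the genotype, and other-numbered ones in 36.1% of pairs. For wild-type libraries the same comparison gave 92 of 96 pairs over 24 genes, against 47.2%. With tibialis the same-numbered pairs were 30 of 32 and 93 of 96, and the other-numbered pairs 41.7% and 49.0%. The genes were picked for being read in some quadriceps libraries and not in others, and these shares carry no test; the labels do not say that a number marks a mouse.

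**Figure D3:**
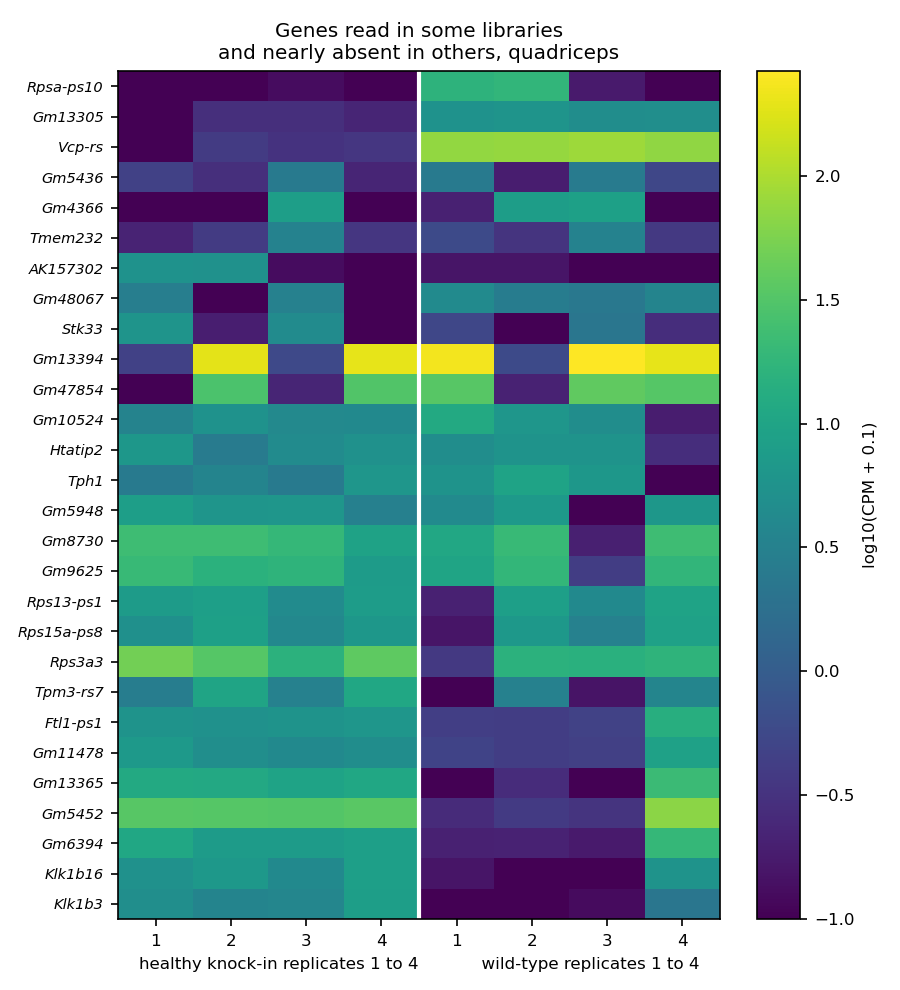
Level of 28 genes (down) in the 4 healthy knock-in and 4 wild-type quadriceps libraries (across), as log10 of CPM + 0.1. The 7 genes at the bottom were read in all healthy knock-in libraries and in wild-type replicate 4 but not in wild-type replicates 1 to 3, while Vcp-rs and Gm13305 near the top divide the genotypes.

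The number of calls depended on wild-type replicate 4. Without it, 11 of 14155 genes (0.0777%) were called, 9 higher and 2 lower in healthy knock-in quadriceps; the lower ones were again Vcp-rs and Gm13305, and the higher ones were Gm5452, Gm1840, Ftl1-ps1, Gm6394, Gm11478, Gm13365, Klk1b3, Ftl2-ps and Klk1b16. This library also had 121 CPM of Hspa1a and 272 CPM of Hspa1b, the stress-inducible HSP70 genes, against at most 25.3 and 60.4 CPM in the other 7 libraries, those of healthy replicate 3. Hspa1a and Hspa1b are near-identical neighbours, so the split between them is uncertain.

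Of the 46 gene lists examined, macrophage markers had the most genes that were higher in healthy knock-in quadriceps at an unadjusted p under 0.05. Of 24 tested, 24 had a positive log2 fold change, against 51.3% of all genes, and the median was 0.57. An unadjusted p under 0.05 in this direction was found for 14 of the 24, against 3.49% of all genes, none was lower, and 6 did not overlap, against 1.97%. None passed the adjusted threshold. Leaving out healthy replicate 4, 24 of 25 were positive with a median of 0.53 and 13 had an unadjusted p under 0.05. Without wild-type replicate 4, a comparison chosen after that library was seen to stand apart, these were 24 of 25, 0.62 and 13. The summed level was 538, 479, 524 and 599 CPM in the healthy knock-in libraries, against 285, 395, 308 and 383 CPM in wild type. The lowest healthy sum was above the highest wild-type sum. In bulk muscle, more cells of a type and more RNA per cell cannot be told apart.

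Cd68, a lysosomal glycoprotein of phagocytes, had 9.68, 7.54, 13.3 and 14.03 CPM in the healthy knock-in libraries, against 3.98, 5.47, 3.87 and 4.16 CPM in wild type. All healthy libraries were above all wild-type ones, and the log2 fold change was 1.35 ± 0.22 (SE) with an adjusted p of 0.332. Ctss, the macrophage cathepsin S, had 27.5, 10.3, 25.2 and 14.5 CPM in the healthy knock-in libraries, against 5.396, 8.04, 6.03 and 10.2 CPM in wild type, with a log2 fold change of 1.43 ± 0.33 (SE) and an adjusted p of 0.688. Its lowest healthy library was close to its highest wild-type library. Lyz2, the lysozyme of myeloid cells, had 84.5 to 123 CPM in healthy knock-in and 48.3 to 81.7 CPM in wild-type quadriceps, and Adgre1, which encodes the F4/80 antigen, had 9.09 to 13.1 CPM in healthy knock-in and 5.396 to 8.15 CPM in wild-type quadriceps. Mpeg1, a pore-forming protein of phagocytes, had 29.7, 5.51, 21.7 and 7.698 CPM in the healthy knock-in libraries, against 3.54, 4.504, 3.497 and 5.23 CPM in wild type; healthy replicates 1 and 3 were high and replicates 2 and 4 just above the wild-type range. Spp1, which encodes osteopontin, had 1.06 to 19.8 CPM in healthy knock-in and 0.428 to 2.75 CPM in wild-type quadriceps, with healthy replicate 2 inside the wild-type range. The class II genes Cd74, H2-Aa and H2-Ab1 had log2 fold changes of 0.55, 0.52 and 0.45, each with wild-type replicate 4 inside the healthy range.

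Interferon response and antigen presentation genes leaned the same way with less separation. Of 30 tested, 28 were positive, against 51.3% of all genes, and the median was 0.44. Of these, 2 were higher at an unadjusted p under 0.05, against 3.49% of all genes, and 1 did not overlap, against 1.97%. Both counts were small and near these shares. Without healthy replicate 4 the median was 0.26. Their summed level was 763, 517, 453 and 1299 CPM in the healthy knock-in libraries, against 411, 432, 416 and 618 CPM in wild type. Healthy replicates 1 and 4 were high, and wild-type replicate 4 was above healthy replicates 2 and 3. Igtp, an interferon-inducible GTPase gene, had 12.04 to 16.03 CPM in healthy knock-in and 6.699 to 13.02 CPM in wild-type quadriceps. Irgm2, a gene of the same kind that overlaps it on chromosome 11, had 18.3 to 19.5 CPM in healthy knock-in and 10.8 to 17.4 CPM in wild-type quadriceps, and reads of one may be counted for the other where they overlap. Other blood cell markers were thin: 3 of 14 listed neutrophil markers and 5 of 20 lymphocyte and mast cell markers had enough reads to test, and none had an unadjusted p under 0.05. The erythrocyte marker Hba-a2, an alpha globin, had 0.5903 to 1.12 CPM in healthy knock-in and 0.399 to 0.709 CPM in wild-type quadriceps.

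Lysosome and autophagy genes were divided. Of 33 tested, 5 were higher at an unadjusted p under 0.05, against 3.49% of all genes, and the median was 0.05. At that threshold 2 were lower, against 2.86%, a small count. The higher ones included Ctss, Ctsb, Ctsz and Gla, which encode lysosomal hydrolases, and the lower ones were Sqstm1, an autophagy receptor, and Vcp. Ctsb had 486, 409, 502 and 602 CPM in the healthy knock-in libraries, against 388, 377, 357 and 398 CPM in wild type, without overlap. Gla, which encodes alpha-galactosidase A, had 3.601 to 4.69 CPM in healthy knock-in and 2.85 to 3.597 CPM in wild-type quadriceps, also without overlap. Leaving out healthy replicate 4, again 5 were higher by this measure, against 3.82% of all genes, and none was lower, against 3.36%. Ctss, Ctsb and Ctsz are also strongly expressed by macrophages, whose summed markers differed as given above; their part in this was not tested.

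No sterol synthesis gene passed the adjusted threshold, but their log2 fold changes all had one sign with 8 libraries. Of 20 tested, 20 had a positive log2 fold change and the median was 0.33. An unadjusted p under 0.05 was found for 7, against 3.49% of all genes, and 2 did not overlap, against 1.97%. Without wild-type replicate 4 the median was 0.39. In the fit without healthy replicate 4, 19 of 20 were positive, the median was 0.29 and again 7 had an unadjusted p under 0.05. Cyp51, the lanosterol demethylase, had 7.201, 8.898, 10.8 and 14.2 CPM in the healthy knock-in libraries, against 5.89, 4.304, 5.06 and 5.49 CPM in wild type. Healthy replicate 4 was the highest, the groups did not overlap, and the log2 fold change was 1.01 ± 0.19 (SE) with an adjusted p of 0.485, or 0.91 ± 0.18 (SE) without that library. Sqle, squalene epoxidase, had 2.36, 5.9, 4.06 and 3.35 CPM in the healthy knock-in libraries, against 2.18, 2.19, 1.36 and 2.48 CPM in wild type, at a log2 fold change of 1.02 ± 0.29 (SE). Mvk, mevalonate kinase, had 9.44 to 10.98 CPM in healthy knock-in and 8.31 to 9.39 CPM in wild-type quadriceps. Scd2, a fatty acid desaturase gene of the lipid synthesis list, had 59.5, 214, 122 and 169 CPM in the healthy knock-in libraries, against 50.8, 62.7, 53.2 and 52 CPM in wild type, and healthy replicate 2 was higher than healthy replicate 4.

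Endothelial markers had mostly negative log2 fold changes, and none passed the adjusted threshold. Of 18 tested, 2 were positive, the median was -0.30, and 5 had an unadjusted p under 0.05 in this direction, against 2.86% of all genes; 3 did not overlap. Without wild-type replicate 4, 3 were positive, and 5 again had an unadjusted p under 0.05. With healthy replicate 4 left out, 1 was positive, the median was -0.33, and 6 had an unadjusted p under 0.05. Tie1, an endothelial receptor tyrosine kinase, had 28.2, 36.6, 40.5 and 39.98 CPM in the healthy knock-in libraries, against 50.2, 49.5, 51.6 and 54.4 CPM in wild type. No healthy library reached the wild-type range, and the log2 fold change was -0.50 ± 0.12 (SE) with an adjusted p of 0.688. Vwf, von Willebrand factor, had 36.8 to 41.6 CPM in healthy knock-in and 44.3 to 55.5 CPM in wild-type quadriceps, and Pecam1, an adhesion molecule of endothelial junctions, had 59.9 to 90.3 CPM in healthy knock-in and 79.01 to 93.01 CPM in wild-type quadriceps. The summed level was 501, 589, 654 and 783 CPM in the healthy knock-in libraries, against 720.1, 668, 742 and 709 CPM in wild type, so that healthy replicate 4 was the highest of all and the other 3 healthy libraries the lowest. Smooth muscle and pericyte markers were positive for 1 of 14 genes, and Abcc9, which encodes the SUR2 subunit of potassium channels, had 254, 309, 316 and 246 CPM in the healthy knock-in libraries, against 385, 385, 384 and 304 CPM in wild type; wild-type replicate 4 was inside the healthy range.

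Genes of the contractile and membrane systems of the fibre had mostly negative log2 fold changes, and none passed the adjusted threshold. Of 22 genes for calcium release and reuptake, 3 were positive and the median was -0.20. At an unadjusted p under 0.05, 4 were lower, against 2.86% of all genes. Ryr1, the calcium release channel of the sarcoplasmic reticulum, had 5149.7, 3664, 4085 and 3751 CPM in the healthy knock-in libraries, against 5956, 5862, 5795 and 5929 CPM in wild type. The wild-type libraries lay close together and above all healthy libraries; the log2 fold change was -0.51 ± 0.13 (SE) with an adjusted p of 0.688. Cacna1s, the voltage sensor that opens Ryr1, had 814 to 1071 CPM in healthy knock-in and 1096 to 1260.3 CPM in wild-type quadriceps, without overlap, and Atp2a1, the calcium pump of fast fibres, had 23527 to 31476 CPM in healthy knock-in and 29809 to 35038 CPM in wild-type quadriceps, with overlap. Of 25 sarcomere and Z-disc genes, 6 were positive and the median was -0.18. At an unadjusted p under 0.05, 4 were lower, against 2.86% of all genes. Ttn, which encodes the giant protein titin, had 6863 to 9449.6 CPM in healthy knock-in and 9764 to 13539.9 CPM in wild-type quadriceps, without overlap. Without healthy replicate 4 the medians moved to -0.10 for calcium handling and -0.09 for the sarcomere, and the numbers with an unadjusted p under 0.05 to 2 and 3. Without wild-type replicate 4 the calcium handling median was -0.27, with 5 such genes.

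The dystrophin complex, which links the fibre's cytoskeleton to the matrix through dystroglycan, had 4 of 17 genes positive and a median of -0.15. Dmd had 161, 165, 159 and 138 CPM in the healthy knock-in libraries, against 209.6, 220.3, 186 and 178 CPM in wild type, all healthy values below all wild-type values, at a log2 fold change of -0.35 ± 0.10 (SE) and an adjusted p of 0.715. Nos1, the neuronal nitric oxide synthase held by the complex, had 14.7 to 35.2 CPM in healthy knock-in and 27.96 to 47.9 CPM in wild-type quadriceps. The enzymes that build the sugar chain of dystroglycan gave no gene with an unadjusted p under 0.05 among 17, and a median of -0.09. One of these 17 had one when healthy replicate 4 was left out.

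Slow fibre genes varied widely between libraries. Of 16 slow fibre genes, 14 were positive with a median of 0.82, but none separated the groups. Of them, 3 were higher at an unadjusted p under 0.05, against 3.49% of all genes. Without healthy replicate 4 it was 7, against 3.82%, and without wild-type replicate 4 it was 5, against 4.27%. Healthy replicate 4 had the lowest healthy sum of these genes and wild-type replicate 4 the highest wild-type sum. Leaving out either thus raises the difference by construction. Their summed level was 939, 624, 1451 and 476 CPM in the healthy knock-in libraries, against 634, 417, 729 and 1289.6 CPM in wild type, and wild-type replicate 4 was above all healthy libraries but replicate 3. Tnni1, the slow troponin I, had 10.03, 1.64, 2.55 and 1.12 CPM in the healthy knock-in libraries, against 0.981, 0.143, 0.124 and 1.86 CPM in wild type, and Tnnc1, the troponin C of slow and cardiac muscle, had 0.372 to 3.19 CPM in healthy knock-in and 0.0992 to 1.59 CPM in wild-type quadriceps. Healthy replicate 1 also had 49.8 CPM of the embryonic light chain Myl4 and 21.2 CPM of sarcolipin, Sln, against at most 5.83 and 1.64 CPM in the other 7. Myh3, the embryonic myosin heavy chain, had 54.4, 8.12, 20.3 and 11.1 CPM in the healthy knock-in libraries, against 10.4, 6.76, 6.45 and 10.6 CPM in wild type, with the same library the highest. Of 17 fast fibre genes, 3 were positive and the median was -0.24. At an unadjusted p under 0.05, 1 was lower, against 2.86% of all genes.

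The remaining groups gave few genes. In the circadian clock list, 4 of 20 had an unadjusted p under 0.05, all lower: Per3, a period gene, had 18.3, 10.2, 20.3 and 16.3 CPM in the healthy knock-in libraries, against 36.8, 25.2, 24.9 and 21.6 CPM in wild type, and Nr1d2, the repressor REV-ERB beta, had 92.3 to 141 CPM in healthy knock-in and 146 to 186 CPM in wild-type quadriceps, neither with overlap, and Tef and Usp2 overlapped. Over all genes 2.86% were lower at that threshold. The time of day at which muscles were taken is not given in the labels. Among 26 immediate early genes 3 were higher at an unadjusted p under 0.05, against 3.49% of all genes. Egr1, a transcription factor gene induced within minutes of stimulation, had 10.4, 12.3, 18.6 and 23.1 CPM in the healthy knock-in libraries, against 7.19, 8.81, 6.15 and 8.41 CPM in wild type, with a log2 fold change of 1.08 ± 0.24 (SE) and an adjusted p of 0.623. Of 28 atrophy genes 14 were positive, and the 1 with an unadjusted p under 0.05 was Foxo4, at 125 to 155 CPM in healthy knock-in and 159.9 to 207 CPM in wild-type quadriceps. Of 35 extracellular matrix genes 6 were positive with a median of -0.16, but Timp1, an inhibitor of matrix proteases, had 1.77 to 3.85 CPM in healthy knock-in and 0.531 to 1.51 CPM in wild-type quadriceps, without overlap. In the fibro-adipogenic progenitor list 8 of 16 genes were positive, with a median of -0.006, and 1 had an unadjusted p under 0.05. This was Pi16, at 14.3 to 23.4 CPM in healthy knock-in and 21.9 to 35.1 CPM in wild-type quadriceps, with overlap. Mthfd2, a mitochondrial folate enzyme, had 6.67 to 8.85 CPM in healthy knock-in and 4.14 to 6.73 CPM in wild-type quadriceps, the glucocorticoid receptor gene Nr3c1 had 87.2 to 102 CPM in healthy knock-in and 103 to 116 CPM in wild-type quadriceps, and Gdf11 had 15.1 to 39.8 CPM in healthy knock-in and 7.88 to 18.7 CPM in wild-type quadriceps. Other genes under an unadjusted p of 0.05 in various lists were Dlk1, Gpx1, Plk2, Socs2, Bambi, Fosb and mt-Co3. Their log2 fold changes were -1.38, 0.45, -0.95, 0.79, -0.72, 1.603 and 0.92. mt-Co3 was at 1.93 to 5.43 CPM, a small part of the 66961.5 to 119798 CPM of the mitochondrial genome list. None of 44 nuclear oxidative phosphorylation genes, 44 cytosolic ribosomal protein genes or 31 proteasome genes had an unadjusted p under 0.05 in the 8 libraries.

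The counts of 10 of the 46 lists moved by 3 genes or more in a direction when healthy replicate 4 or wild-type replicate 4 was left out. Over all genes, 4.27% were higher and 3.59% lower at an unadjusted p under 0.05 without wild-type replicate 4. Without healthy replicate 4 these shares were 3.82% and 3.36%. Adipocyte markers and slow fibre genes are given with their own values. Without wild-type replicate 4, cytosolic heat shock genes, the chaperones that refold proteins, had 6 of 21 higher at an unadjusted p under 0.05, against 0 with 8 libraries, and 19 positive, against 12. That library had the highest heat shock sum, so leaving it out lowers the wild-type group by construction. Immediate early genes had 6 of 26 higher, against 3, and nuclear oxidative phosphorylation genes 3 of 44 higher, against 0, with 42 positive, against 35. Wild-type replicate 4 had the highest sum of the 8 libraries in both lists, at 1048 and 20629 CPM. Leaving it out thus lowers the wild-type group by construction here too. Satellite cell markers had 3 of 14 lower, against 0 of 13. Without healthy replicate 4, atrophy genes had 4 of 28 lower, against 1, with 9 positive, and tendon markers had 4 of 14 higher, against 1, with 13 positive, against 8. Healthy replicate 4 had the highest healthy sum of atrophy genes, 3643 CPM, and the lowest of tendon markers, 386 CPM. Leaving it out thus lowers the healthy group for the first list and raises it for the second by construction. A pair of lists went opposite ways. Fatty acid oxidation genes had 0 of 30 with an unadjusted p under 0.05 in the 8 libraries, 4 lower without healthy replicate 4 and 4 higher without wild-type replicate 4. Glucocorticoid-responsive genes had 1 of 20 lower in the 8 libraries, 5 lower without healthy replicate 4, and 3 higher and none lower without wild-type replicate 4. For both lists, replicate 4 had the highest sum of its group in each genotype, so leaving it out lowers that group by construction.

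**Figure D4:**
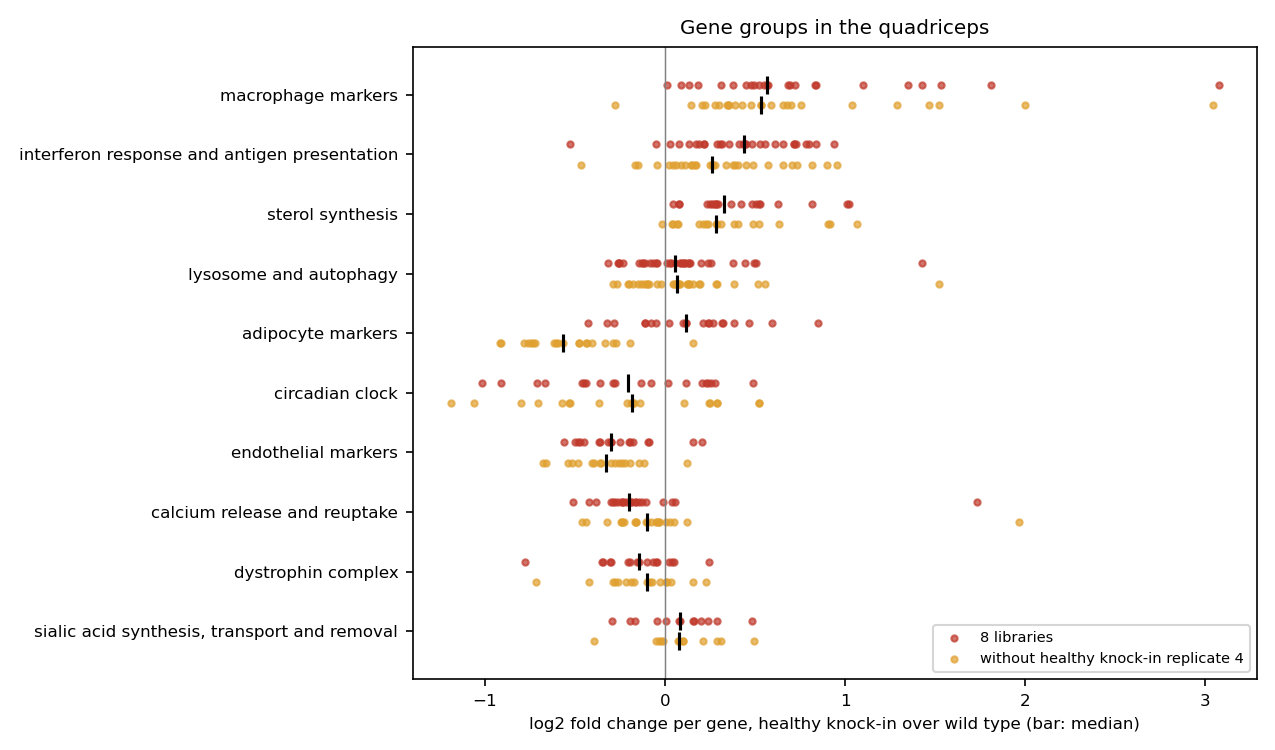
Log2 fold change of healthy knock-in over wild-type quadriceps for each tested gene of 10 groups, in the fit of 8 libraries (red) and without healthy knock-in replicate 4 (yellow); bars are medians. The macrophage median was 0.57 and 0.53 in these fits, the endothelial median -0.30 and -0.33, and the adipocyte median 0.12 and -0.57.

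Healthy replicate 4 held many more transcripts of fat cells than the other 7 libraries. Of 21 tested adipocyte markers, 21 were highest in it, where 21.9% of all genes were. Their summed level was 2110.1, 2480.1, 2380.5 and 11312 CPM in the healthy knock-in libraries, against 2405, 2935, 2862 and 3698 CPM in wild type. With all 8 libraries the log2 difference of healthy knock-in over wild type in this sum was 0.23. Without healthy replicate 4 it was -0.34, with the 3 healthy libraries at 2324 ± 191 CPM and the 4 wild-type libraries at 2975 ± 536 CPM (SD). That library was set apart for its adipocyte transcripts, so leaving it out lowers the healthy group by construction, and values of adipocyte genes without it are a description with no test. Some of the most abundant markers, such as Car3, Lpl and Pnpla2, are also expressed by muscle fibres.

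Fabp4, the fatty acid binding protein of adipocytes and capillaries, had 143, 133, 185 and 1678 CPM in the healthy knock-in libraries, against 196, 193, 241 and 196 CPM in wild type. The other 3 healthy libraries were below all wild-type libraries, and the log2 fold change was -0.44 ± 0.13 (SE) without replicate 4, against 0.47 ± 0.75 (SE) with it. Plin4, a lipid droplet coat protein, had 189, 178, 201 and 915 CPM in the healthy knock-in libraries, against 316, 319.9, 461 and 352 CPM in wild type. Its log2 fold change without replicate 4 was -0.91 ± 0.14 (SE), against -0.32 ± 0.51 (SE) with it. Cfd, the secreted protease adipsin, had 101, 53.97, 111 and 862 CPM in the healthy knock-in libraries, against 89.5, 166, 145 and 92.7 CPM in wild type. Lpl, lipoprotein lipase, had 355, 411, 714 and 1286 CPM in the healthy knock-in libraries, against 414, 392.3, 390.5 and 1062 CPM in wild type. Wild-type replicate 4 was close to healthy replicate 4 for Lpl and not for Cfd. Pnpla2, the lipase that starts the breakdown of stored fat, had 116 to 851 CPM in healthy knock-in and 176 to 311 CPM in wild-type quadriceps, and Car3, carbonic anhydrase 3, 675 to 2881 CPM in healthy knock-in and 1002 to 1456 CPM in wild-type quadriceps. With 8 libraries 14 of 21 markers were positive and the median was 0.12; without healthy replicate 4, 1 was positive and the median was -0.57.

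The excess included some genes of brown fat. Of 10 brown adipocyte markers listed, 7 were tested, of which 4 were highest in healthy replicate 4 and 1 was lowest. Ucp1 is not among these 7, as too few libraries had enough reads of it. Ucp1, which uncouples respiration to make heat, had 0.5903, 0.2902, 0.567 and 435 CPM in the healthy knock-in libraries, against 0.273, 0.1995, 3.65 and 0 CPM in wild type, and Cidea, a lipid droplet protein of brown fat, had 1.181, 0.5803, 1.54 and 172 CPM in the healthy knock-in libraries, against 0.5995, 0.456, 2.31 and 1.77 CPM in wild type. Otop1, a proton channel, had 0.236, 0.8705, 0.945 and 35.1 CPM in the healthy knock-in libraries, against 0.5995, 0.684, 0.744 and 1.42 CPM in wild type. The median log2 fold change of the lipid synthesis list was 0.94 with 8 libraries and -0.08 without healthy replicate 4. The list was highest in that library for 11 of its 14 genes, with a summed level of 1169.6, 1174, 1336 and 14156 CPM in the healthy knock-in libraries, against 1294, 1259, 1322 and 1268 CPM in wild type. Fasn, fatty acid synthase, had 52.4, 59.9, 76.7 and 4033 CPM in the healthy knock-in libraries, against 60.1, 63.2, 87.1 and 59.7 CPM in wild type, and Scd1, a desaturase, 185, 94.8, 129 and 6587 CPM in the healthy knock-in libraries, against 297, 159, 201 and 169 CPM in wild type. The other 3 healthy libraries lay within or next to the wild-type range for Fasn. In the same library Acly, which makes cytosolic acetyl-CoA, reached 786 CPM, Acaca, acetyl-CoA carboxylase, 505 CPM, Tkt, transketolase, 625 CPM, Pck1, which feeds glycerol synthesis, 1061 CPM, Slc25a1, the citrate carrier, 197 CPM, and Pygl, the liver-type glycogen phosphorylase, 185 CPM. The highest of the other 7 libraries for these genes were 26.5 CPM for Acly, 19.96 CPM for Acaca and 37.2 CPM for Pck1.

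Among all genes, 20.6% were lowest in healthy replicate 4. The 5 with the largest drop below the next library were Plxdc1, Sertad4, Col8a2, Cilp2 and Tnfrsf19, at 1.12, 0.621, 0.621, 3.85 and 1.49 CPM. Cilp2, a cartilage matrix gene, had 12.9, 74.4, 46 and 3.85 CPM in the healthy knock-in libraries, against 36.6, 29.99, 31.8 and 15.8 CPM in wild type. Of 14 tendon markers 9 were lowest in healthy replicate 4, as were 16 of 31 proteasome genes, 11 of 22 calcium handling genes and 8 of 13 satellite cell markers, but 3 of 35 extracellular matrix genes. The summed level of the tendon markers was 584, 1768, 1717 and 386 CPM in the healthy knock-in libraries, against 905, 977, 947 and 558 CPM in wild type. These values describe 1 library that was chosen for standing apart and carry no test.

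**Figure D5:**
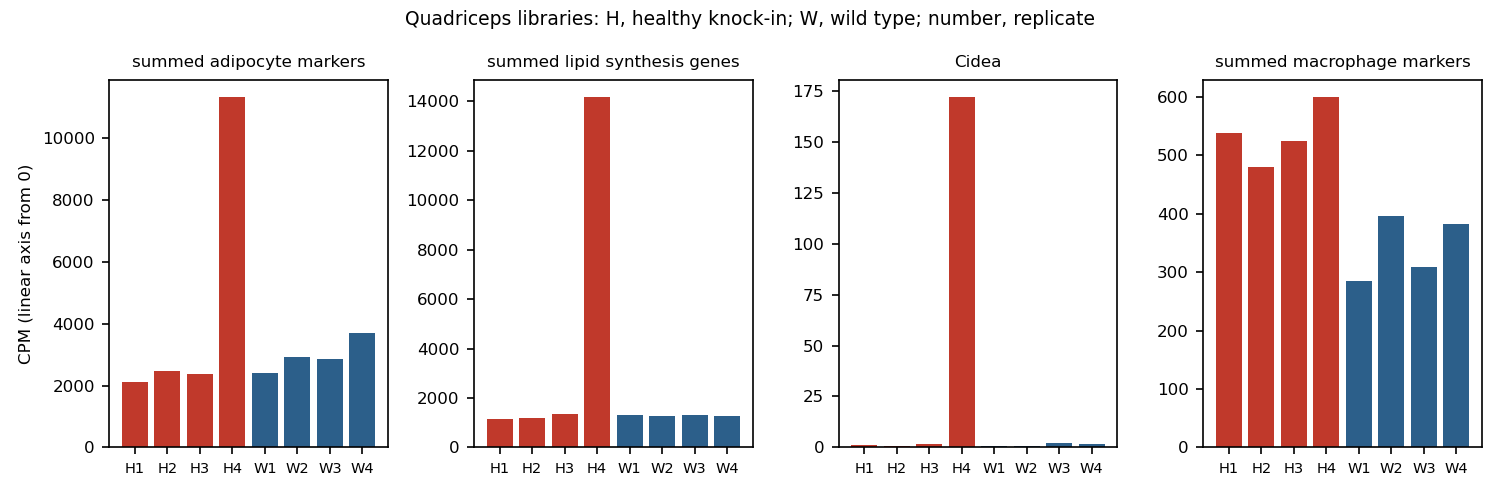
Summed CPM of adipocyte markers and of lipid synthesis genes, CPM of Cidea, and summed CPM of macrophage markers, in each quadriceps library; H is healthy knock-in, W wild type, and the number the replicate. Healthy knock-in replicate 4 stands far above the other 7 libraries in the first 3 panels and is the highest of 4 healthy knock-in libraries that all exceed the wild-type ones in the last.

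The quadriceps was set against the other muscles of healthy knock-in mice, with all libraries taken as independent, although muscles must share mice. With limma, 0 of 14826 genes (0%) differed from gastrocnemius in the healthy knock-in change at an adjusted p of 0.05, and 1118 had an unadjusted p under 0.05; limma-trend also called 0. Against tibialis 16 genes differed (0.108%), all with a higher change in quadriceps, and none of the 16 had enough reads in the 8 quadriceps libraries to be tested there. Genes tested in the 8 libraries could therefore not be among the 16. Over the 79 genes named by rule, the lowest adjusted p of the difference in limma was 0.656 against gastrocnemius and 0.402 against tibialis. In tibialis alone, 59 of 13805 genes (0.427%) were called between healthy knock-in and wild type, 56 of them lower. In gastrocnemius alone it was 1 of 13961. With libraries of a genotype and number as a block, a limma fit added after the data were seen, 0 genes differed from gastrocnemius and 21 from tibialis (0.142%), 14 of them among the 16, and the lowest adjusted p of the 79 genes was 0.389 and 0.252.

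Vcp-rs had a log2 fold change of -8.59 in quadriceps, -9.04 in gastrocnemius and -9.30 in tibialis of healthy knock-in mice. Gm13305 had -5.08, -5.70 and -5.66. Hint2 had 1.56, 0.58 and 0.74, and Galt 0.98, 0.66 and 0.84. These 4 genes had the same sign in all 3 muscles. Cd68 had 1.35 in quadriceps, 0.03 in gastrocnemius and 0.03 in tibialis, and Mypn -0.44, 0.25 and 0.12. Macrophage markers were positive for 6 of 25 genes in gastrocnemius, with a median of -0.27, and for 17 of 25 in tibialis, with a median of 0.44. Endothelial markers were positive for 1 of 18 genes in each of the other muscles, with medians of -0.41 and -0.35. Calcium handling genes were positive for 16 of 22 in gastrocnemius and 15 of 21 in tibialis. Slow fibre genes were positive for 0 of 17 and 4 of 17. No list-wise difference between muscles was tested.

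Sick knock-in quadriceps, 3 libraries, shares the wild-type libraries, so its values are given beside these with no measure of likeness. Vcp-rs was -8.48 in sick against wild type, Gm13305 -5.19, Hint2 0.94 and Galt 0.99, as log2 fold changes. Cd68 was 0.90 and Cyp51 0.10. Macrophage markers were positive for 19 of 25 genes in sick quadriceps with a median of 0.71, sterol synthesis genes for 8 of 20 with a median of -0.31, endothelial markers for 4 of 18 with a median of -0.27 and calcium handling genes for 3 of 22 with a median of -0.50. In that comparison 1965 of 13903 genes were called, against 2 of 13479 here.

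The authors' deposited table lists 14 genes at an adjusted p under 0.05 for the same comparison, 9 higher and 5 lower in healthy knock-in quadriceps. Both genes called here are among them, and 4 had too few reads to test here, namely Il7r, Slc2a5, Klk1 and Gm12407. The other 8 were Gm2564, Zfp27, Hint2, Phf24, Cyp51, Akap2, Elovl6 and Thrsp. In the authors' deposited table Hint2 has a log2 fold change of 1.55 with an adjusted p of 0.00116. Elovl6, a fatty acid elongase, and Thrsp, a lipid synthesis regulator, are in that deposited list with log2 fold changes of 3.63 and 2.59. In the libraries Elovl6 had 1.181, 3.58, 1.83 and 70.03 CPM in the healthy knock-in libraries, against 1.04, 1.45, 1.74 and 1.95 CPM in wild type, and Thrsp 26.4, 33.9, 18.2 and 471 CPM in the healthy knock-in libraries, against 25.9, 26.3, 22.8 and 16.4 CPM in wild type, so healthy replicate 4 alone was high. Without it the log2 fold changes were 0.39 for Elovl6 and 0.07 for Thrsp. Slc2a5 had 7.2 CPM in healthy replicate 4 and at most 0.354 CPM in any other of these quadriceps libraries.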

How the data were processed

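RNA of 32 mouse muscle libraries was sequenced; 8 quadriceps libraries are compared here. Reads were processed with cutadapt 1.18, TopHat2 2.1.1, HTSeq 0.6.0 and DESeq2 1.22.1 on GRCm38, per the submitters' processing notes. The authors deposited 1 table with read counts per gene and library, 6252 of 54838 genes without a value, and their own log2 fold changes, p-values and adjusted p-values. Which reads HTSeq counted, and whether by strand, is not given in the sources used here. Because the count columns hold marks for missing values, counts were modelled with limma 3.58.1 (R 4.3.3): scaling by trimmed mean of M values (trims 0.3 and 0.05), genes kept at the CPM of 10 counts in the median library and a total of 15, voom with a prior of 0.5, robust empirical Bayes, Benjamini-Hochberg adjustment over all genes tested, threshold 0.05. The test was checked on simulated counts. CPM values are counts over scaled totals. Totals of 7685164 to 42588233 per library set the precision; genes near the filter rest on few reads.

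Genes were named by rule: Gne; all called genes; up to 10 per direction by smallest unadjusted p among genes whose groups did not overlap; up to 2 per list with an unadjusted p under 0.05; the 6 most abundant adipocyte markers; genes of at least 5 CPM whose level in healthy replicate 4 departed most from the nearest library, 10 above and 5 below; and the 4 genes with the smallest p within 5 Mb of Gne. Some genes that meet the rule are not reported here. Copies, parent genes, further list members and genes absent in some libraries were named after their values were seen. The members and the 46 gene lists were chosen with earlier results of these data known. Sequences and shared words come from GRCm38 with GENCODE M21, whose identifiers cover 54809 of the 54838 genes. Alternatives were median-of-ratios scaling, no filter, limma-trend with a prior of 2, quality weights, non-robust fits, 11 or 32 libraries in the fit, the replicate block (for differences between muscles also within genotype, added after the data were seen), adipocyte markers as a covariate, and leaving out each library. Deviations of same-numbered libraries of the genotypes correlated weakly (see the closing section), and these libraries were not paired.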

Additional observations from a re-analysis of the deposited data

Results flagged for a closer look

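A library was picked out where its gap to the nearest of the other 3 in its group was large for the group's whole range (Dixon's test at 95%). This was so in 25 of 188 groups of values, or 13.3%. Chance picks out about 1 in 20 groups, but the values include genes chosen for standing out in healthy replicate 4 and adipocyte markers, so this share is not set against chance. Most were healthy knock-in replicate 4, which was far above the other healthy libraries for the adipocyte genes Fabp4 at 1678 CPM, Plin4 at 915 CPM and Cfd at 862 CPM. The brown fat genes were Ucp1 at 435 CPM, Cidea at 172 CPM and Otop1 at 35.1 CPM. The genes of lipid and carbohydrate metabolism were Fasn at 4033 CPM, Tkt at 625 CPM, Acly at 786 CPM, Pck1 at 1061 CPM, Pygl at 185 CPM, Acaca at 505 CPM and Slc25a1 at 197 CPM. The summed adipocyte markers of that library were 11312 CPM and its summed lipid synthesis genes 14156 CPM.

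Elsewhere among the healthy libraries, replicate 1 was high for Tnni1 at 10.03 CPM and replicate 3 for Fosb at 3.09 CPM. Wild-type replicate 4 was high for Gm1840 at 14.6 CPM, Fosb at 2.30 CPM, Lpl at 1062 CPM and the summed interferon response genes at 618 CPM, and low for Abcc9 at 304.0 CPM. Wild-type replicate 3 was high for Fabp4 at 240.5 CPM, Ucp1 at 3.65 CPM and Fasn at 87.1 CPM. The healthy knock-in change differed between quadriceps and tibialis for 16 genes by the interaction term in limma; none of them had enough reads to test in the quadriceps comparison alone.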

How the results depend on the processing

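Vcp-rs and Gm13305 were among the calls of the 8 libraries under every alternative run. The number of calls was 2; it was 5 with no filter on low counts and with 11 quadriceps libraries in the fit, 9 with 32 libraries and 9 with quality weights, and 2 to 11 when each library was left out, 11 without wild-type replicate 4. Without healthy replicate 4 it was 2; it was 4 with no filter, 6 with 32 libraries and with quality weights, 1 with the adipocyte covariate, and 1 to 12 when a further library was left out: 12 without healthy replicate 2 or wild-type replicate 4, and 1 without healthy replicate 1 or wild-type replicate 1. Gm13305 was the call lost in these fits of 1 call and without healthy replicate 3; Vcp-rs was called in all of them. For the difference from gastrocnemius, 1 gene was called with no filter and 0 in all leave-one-out fits. For tibialis 16 became 68 with no filter, 28 with limma-trend and 10 to 35 on leaving out libraries, 10 without wild-type quadriceps replicate 3 and 35 without healthy gastrocnemius replicate 2. The summed adipocyte log2 difference of 0.23 ranged over -0.34 to 0.46. The replicate block, which pairs same-numbered libraries, gave 2 calls with 8 libraries and 19 without healthy replicate 4. In the latter fit wild-type replicate 4 has no partner, so the block in effect leaves that library out too. The 19 calls are thus not a result of pairing alone. The deviations of same-numbered libraries correlated at 0.09, 0.24, -0.06 and 0.12. Healthy replicates 1, 2 and 4 correlated best with the wild-type library of their own number. Healthy replicate 3 correlated best with wild-type replicate 4, at 0.18. These correlations were low, so the numbers were not taken as pairs.

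Among the gene values under alternatives, 28 turned sign, 16 passed the threshold and 1273 did neither. The 16 were 5 for Hint2, 4 for Gm1840, 2 for Galt and 1 each for Cd68, Gm43699, Zfp27, Gm2564 and Pde4dip. Car3 was -0.077 with no filter, -0.066 with quality weights and -0.060 with the covariate, Pygl -0.024 with quality weights, Col8a2 0.032 and Cilp2 0.034 with the block, and Tnfrsf19 -0.0196 with no filter, -0.0198 with 32 libraries and -0.34 with limma-trend. Leaving out single libraries gave log2 ranges of -0.29 to 0.38 for Car3, -0.19 to 0.61 for Lpl, -0.44 to 0.83 for Fabp4, -0.27 to 0.73 for Pnpla2, -0.48 to 0.89 for Cfd, -0.089 to 2.13 for Fasn, -0.067 to 1.62 for Tkt, -0.12 to 1.68 for Acly, -0.60 to 1.32 for Pck1, -0.42 to 1.13 for Pygl, -0.059 to 1.51 for Acaca, -0.10 to 1.36 for Otop1, -0.89 to 0.12 for Plxdc1, -1.01 to 0.11 for Col8a2, -0.72 to 0.40 for Cilp2 and -0.46 to 0.60 for Tnfrsf19. The cause was not tested, except that for most of these the end of the range opposite in sign is the fit without healthy replicate 4. With libraries of 7685164 counts or more, changes of genes near the filter are poorly measured.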
